A study of Homo sapiens with 12 samples.

Results

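Solute carriers are membrane proteins that move amino acids, sugars, ions, metals, nucleotide sugars and other small molecules across cell and organelle membranes, and their genes carry symbols of the form SLC followed by a family number. The transcripts described here are those of 192 such genes among the 10157 genes that could be measured in a polysome profiling study of MCF10A cells. A gene entered when a probe set was annotated with its symbol alone, antisense genes and pseudogenes were left out, each gene was read by its brightest probe set, and a log2 intensity of at least 6 was needed in at least 4 of the 12 arrays. Of 346 SLC genes with such a probe set, 192 (55.5%) passed, against 51.4% of all 19775 genes on the array. Members were thus chosen by their intensity over the 12 arrays, so which carriers were measured is a description and not a result. Of the 192, 133 lay at or above the filter in all 12 arrays. One gene, SLC16A4, passed only through Total arrays, SLC27A2 passed only through knockdown arrays and SLC68A1 only through WT arrays. Just inside the threshold, in 4 arrays, were SLC6A7, SLC16A4, SLC22A7, SLC27A2 and SLC5A5, with highest log2 values between 6.18 and 7.01. Just outside it, in 3 arrays, were SLC1A1, SLC22A25, SLC22A8, SLC2A13, SLC39A5, SLC41A2 and SLC6A11, with highest values between 6.09 and 6.80.

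MCF10A is an immortalised human mammary epithelial line; the sample annotation gives its origin as breast cancer, although the line is known as non-tumorigenic. Cells with eIF4G1 silenced by an shRNA under doxycycline control (4GKD), or wild type (WT) cells, received 10 Gy from a linear accelerator or a mock treatment. eIF4G1 is the scaffold that joins the cap-binding protein, the RNA helicase and the ribosome during translation initiation. RNA was taken from a heavy polysome pool (HMW), a light polysome pool (LMW) and total RNA (Total) of each condition, with 1 array for each of the 12 combinations. Ribosome numbers are given for the WT mock pools alone, at least 4 in HMW and 1 to 3 in LMW. Whether the WT cells received doxycycline, whether the knockdown line was 1 clone, and how long after irradiation RNA was taken is not stated in the annotation. Basal mammary markers were present, with KRT5 at log2 11.66 to 13.77 and KRT14 at 11.95 to 13.59 over the 12 arrays, and CDH3, EGFR, EPCAM and ITGB4 were at or above the filter in all 12 and CDH1 in 10. Of the markers of other cell types, PGR, FOXA1, COL1A2, COL3A1, PDGFRA, PTPRC, CD3E, PECAM1 and CDH5 stayed below the filter in all of them. GATA3 was at or above it in 12 arrays, COL1A1 in 11 with a highest value of 8.78, CD14 in 10, PDGFRB in 7 and ESR1 in 6, and their part in the results was not tested. EIF4G1 was at intensities of 163.3 to 188.8 in the 4GKD Total and HMW arrays, against 864.1 to 2902 in the WT Total and HMW arrays, and at 87.19 and 126.9 in 4GKD LMW, against 370.4 and 474 in WT LMW.

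3 arrays stood apart from the others of their preparation. In WT mock LMW, WT mock HMW and WT 10 Gy LMW, 21.8% to 23.1% of all genes lay at least 2-fold from the median of the other 3 arrays, against 4.0% to 13.5% in the other 9 arrays. For the carriers these were 45, 45 and 40 of 192 genes, against 3 to 25 in the other arrays. Some results that rest on these arrays are therefore given by matched pair as well as by the fit. The others are given by the fit alone, although they rest on these arrays too. Values of a pool are relative to the other transcripts on the same array, since the authors' normalisation brings arrays to a like distribution, and an array cannot tell fewer cells with a transcript from fewer copies in each cell.

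The carriers fell into classes by the solutes their families are known to move. There were 25 amino acid carriers, 14 sugar carriers, 19 carriers of inorganic ions and 24 metal carriers. A further 35 belonged to SLC25, the family of mitochondrial carriers, and 21 to SLC35, the family of nucleotide sugar carriers of the Golgi and endoplasmic reticulum. There were 52 other carriers. All 35 SLC25 members are called mitochondrial below by their family symbol, and the place of each in the cell was not checked. SLC2A4RG and SLC4A1AP carry an SLC symbol but are not carriers. Mitochondrial and metal carriers had the highest class medians of the mean level over the 12 arrays, both at log2 8.22, and inorganic ion carriers the lowest, at 7.22. These levels compare probe sets only loosely, since probe sets differ in brightness. The top of the mitochondrial class was SLC25A3, the phosphate carrier of the inner membrane, with a mean of 13.63. The top amino acid carrier was SLC38A2, a sodium-coupled importer of neutral amino acids, with 12.40. SLC20A1, a phosphate importer, led the ion carriers with 11.87, and SLC39A6, a zinc importer, led the metal carriers with 11.60.

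Upstream sequences are shown for 3 carriers whose transcripts recur in the comparisons below: SLC1A3, a glutamate and aspartate importer, SLC30A1, the zinc exporter of the plasma membrane, and SLC39A10, a zinc importer. Each is the 250 bases before the annotated gene start, 5′ to 3′ on the gene's strand, from RefSeq for GRCh38.p14. SLC1A3 lies on the plus strand at chr5:36596338-36596587, SLC30A1 on the minus strand at chr1:211579162-211579411 and SLC39A10 on the plus strand at chr2:195656708-195656957. Capitals mark matches on either strand to TGATGNAA, letters of the amino acid response element, or to TGCNCNC, letters of the metal response element.
SLC1A3: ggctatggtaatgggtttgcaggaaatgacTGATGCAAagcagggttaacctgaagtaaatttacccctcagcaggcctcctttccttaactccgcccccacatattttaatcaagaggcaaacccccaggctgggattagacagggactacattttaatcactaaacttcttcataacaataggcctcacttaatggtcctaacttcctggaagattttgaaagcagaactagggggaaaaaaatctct
SLC30A1: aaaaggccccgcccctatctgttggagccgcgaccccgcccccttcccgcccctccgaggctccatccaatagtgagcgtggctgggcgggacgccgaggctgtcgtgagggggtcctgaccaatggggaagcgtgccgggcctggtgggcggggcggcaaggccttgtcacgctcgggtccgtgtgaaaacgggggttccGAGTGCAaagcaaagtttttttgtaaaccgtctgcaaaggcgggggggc
SLC39A10: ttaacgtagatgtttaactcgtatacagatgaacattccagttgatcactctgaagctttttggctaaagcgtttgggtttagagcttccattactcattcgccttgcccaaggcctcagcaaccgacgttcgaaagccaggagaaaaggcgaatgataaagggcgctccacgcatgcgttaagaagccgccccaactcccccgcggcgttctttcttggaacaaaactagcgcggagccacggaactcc
The SLC1A3 stretch held 1 match to the amino acid letters, the SLC30A1 stretch 1 match to the metal letters, and the SLC39A10 stretch neither. RefSeq promoters were found for 160 of the 192 members. The amino acid letters occurred in 5 of these 160 (3.1%), which were SLC1A3, SLC9A9, SLC11A1, SLC25A11 and SLC27A5, and in 3.2% of 27305 promoters of the same length. The metal letters occurred in 55.6% of the 160, in 42.9% of the 21 metal carriers among them and in 48.4% of all promoters. The share of members with the amino acid letters was near that of all promoters, and a match is only a match of letters.

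The first comparison, HMW with LMW, asks where in the polysome gradient each transcript was found. Transcripts of 8 of 25 amino acid carriers were relatively more abundant in heavy polysomes and 3 in light ones, while 15 of 35 mitochondrial, 9 of 21 SLC35 and 5 of 14 sugar carriers were relatively more abundant in light ones, against 2, 0 and 1 in heavy ones. Of the 192 members, 24 were higher and 52 lower in HMW (limma, adjusted p below 0.05, condition as a block). Over all 10157 genes, 40.7% were called, 19.6% higher and 21.1% lower, so the members' share of higher calls, 12.5%, was below and their share of lower calls, 27.1%, above those of all genes. Their median difference was -0.21 on the log2 scale, against -0.06 over all genes.

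Among the amino acid carriers 8 of 25 were higher and 3 lower in HMW. The class median was 0.10 in the fit, and -0.07 in 4GKD 10 Gy, -0.08 in 4GKD mock, 0.16 in WT 10 Gy and 0.09 in WT mock, so it was below 0 in both 4GKD pairs and above 0 in both WT pairs. SLC1A3 stood at log2 8.91, 8.81, 7.84 and 6.62 in the HMW pools of 4GKD 10 Gy, 4GKD mock, WT 10 Gy and WT mock, against 7.95, 7.57, 6.27 and 5.17 in the LMW pools in the same order. The HMW value was above the LMW value in each of the 4 conditions, with a difference of 1.30 (SE 0.15, adjusted p = 0.00248), although the groups overlapped. SLC38A2 was at 13.01, 12.99, 12.46 and 11.57 in the HMW pools, against 12.48, 11.998, 11.85 and 10.71 in the LMW pools, a difference of 0.75 (SE 0.12, adjusted p = 0.00482). Its relative SLC38A1 was also higher in HMW, by 0.85 (SE 0.20, adjusted p = 0.0165), as was SLC6A15, another neutral amino acid carrier, by 1.05 (SE 0.21, adjusted p = 0.00942). The cationic amino acid importers SLC7A1 and SLC7A2 were higher in HMW, by 0.68 (SE 0.11, adjusted p = 0.00577) and 0.85 (SE 0.20, adjusted p = 0.0148). Other SLC7A1 probe sets read only 0.185 and 0.026. The opposite was seen for SLC36A1, a proton-coupled amino acid carrier, which fell by 0.81 (SE 0.12, adjusted p = 0.00463). SLC66A1, which exports cationic amino acids, fell by 0.80 (SE 0.21, adjusted p = 0.0219). SLC7A5, a light subunit for large neutral amino acids, fell by 0.60 (SE 0.10, adjusted p = 0.00596). SLC1A5, the glutamine importer, did not pass, with a difference of 0.35 (SE 0.22, adjusted p = 0.234) that ranged from -0.07 in the 4GKD 10 Gy pair to 1.14 in the WT 10 Gy pair.

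Of the 35 mitochondrial carriers 15 were lower and 2 higher in HMW. The class median was -0.36, and it was below 0 in every condition, at -0.15 in 4GKD 10 Gy, -0.37 in 4GKD mock, -0.48 in WT 10 Gy and -0.48 in WT mock. SLC25A39, needed for mitochondrial glutathione import, stood at 8.16, 8.17, 8.46 and 8.998 in the HMW pools, against 8.90, 9.19, 9.34 and 9.96 in the LMW pools. The difference was -0.90 (SE 0.13, adjusted p = 0.00421), of like size in all 4 pairs. SLC25A1, the citrate carrier, fell by 0.90 (SE 0.14, adjusted p = 0.00461), and SLC25A11, the oxoglutarate carrier, fell by 0.88 (SE 0.12, adjusted p = 0.00420). The 2 exceptions were SLC25A13, a carrier of aspartate and glutamate, with a difference of 0.56 (SE 0.17, adjusted p = 0.0379), and SLC25A24, a carrier of ATP-Mg and phosphate, with 0.51 (SE 0.13, adjusted p = 0.0193). For SLC25A13 the other probe sets read the opposite way, at -0.13 and -0.19, and the median of its probe sets gave -0.13. With the 30 mitochondrial carriers that were above the filter in all 12 arrays, 14 were lower and 2 higher.

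The SLC35 family had 9 lower and 0 higher of 21 in HMW, with SLC35E4 at -0.78 (SE 0.21, adjusted p = 0.0228) and SLC35H1 at -0.73 (SE 0.13, adjusted p = 0.00707). SLC35B1, the ATP carrier of the endoplasmic reticulum, was at 8.65, 8.66, 8.46 and 9.38 in the HMW pools, against 8.99, 9.20, 9.41 and 10.20 in the LMW pools, lower in HMW in each of the 4 conditions (difference -0.66, SE 0.15, adjusted p = 0.0137). The 14 sugar carriers had 1 higher and 5 lower. The higher one was SLC5A3, the myo-inositol importer, at 8.07, 7.87, 8.18 and 7.39 in the HMW pools, against 6.93, 7.07, 5.78 and 6.09 in the LMW pools. Its groups did not overlap, and the difference was 1.41 (SE 0.26, adjusted p = 0.00711). SLC37A4, the glucose 6-phosphate carrier of the endoplasmic reticulum, fell by 0.75 (SE 0.14, adjusted p = 0.00743), SLC2A11, of the glucose transporter family, by 0.61 (SE 0.15, adjusted p = 0.0172) and SLC50A1, a glucose carrier, by 0.52 (SE 0.15, adjusted p = 0.0274). SLC2A11 was above the filter in every LMW array and below it in every HMW array, so its fall is partly a matter of selection. SLC2A1, the widespread glucose importer, had a difference of 0.53 (SE 0.28, adjusted p = 0.165), from -0.26 in the 4GKD mock pair to 1.52 in the WT 10 Gy pair.

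Among the 19 ion carriers 3 were higher and 1 lower in HMW. SLC4A7, a sodium bicarbonate importer, was at 7.86, 8.21, 7.95 and 6.33 in the HMW pools, against 6.26, 6.35, 6.51 and 5.86 in the LMW pools, a difference of 1.34 (SE 0.23, adjusted p = 0.00634). Its other probe set read 0.46. SLC26A2, a sulfate carrier, differed by 0.91 (SE 0.16, adjusted p = 0.00643) and SLC12A2, the sodium-potassium-chloride importer, by 0.90 (SE 0.22, adjusted p = 0.0168). SLC4A2, an anion exchanger, fell by 0.54 (SE 0.16, adjusted p = 0.0344). The metal carriers were split, 5 higher and 7 lower of 24. SLC39A10 and SLC30A1, which move zinc in opposite directions across the plasma membrane, were both higher in HMW, by 1.08 (SE 0.24, adjusted p = 0.0130) and 0.96 (SE 0.16, adjusted p = 0.00575). Another SLC30A1 probe set read 0.36. SLC39A1, a plasma membrane zinc importer, stood at 6.83, 6.54, 6.75 and 6.93 in the HMW pools, against 7.54, 7.50, 7.48 and 8.41 in the LMW pools, without overlap (difference -0.97, SE 0.17, adjusted p = 0.00628). SLC39A7, which releases zinc from the endoplasmic reticulum, fell by 0.97 (SE 0.19, adjusted p = 0.00819).

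Of the other carriers 4 of 52 were higher and 11 lower. SLC6A6, the taurine importer, was higher by 1.16 (SE 0.13, adjusted p = 0.00237), while its other probe set read -0.26, and SLC33A1, the acetyl-CoA carrier of the endoplasmic reticulum, was higher by 0.91 (SE 0.13, adjusted p = 0.00409). SLC6A8, the creatine importer, fell by 0.90 (SE 0.13, adjusted p = 0.00421) and SLC33A2 fell by 0.98 (SE 0.14, adjusted p = 0.00421). Without the condition as a block, no member was called in this comparison. Without the WT mock pair 45 members were called, and without the 4GKD mock pair 39, against 76 with all 4 pairs.

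**Figure D1:**
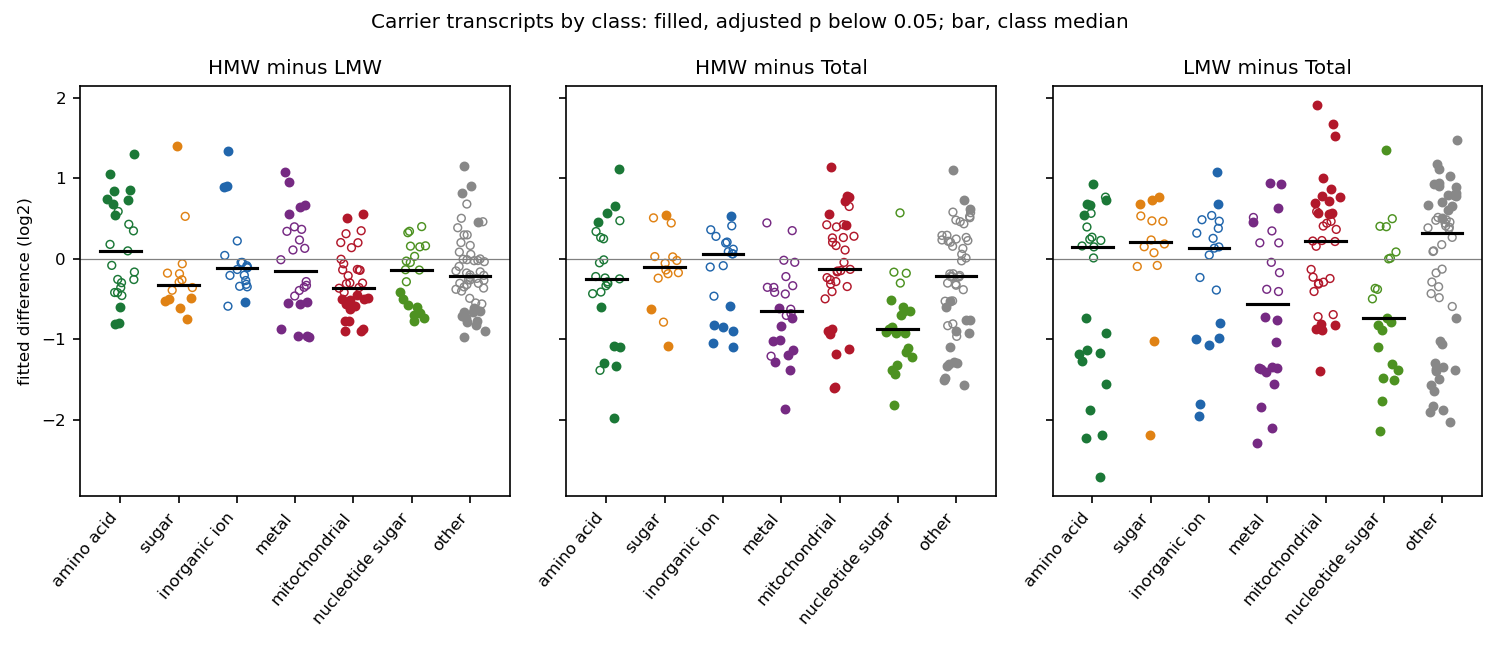
Fitted differences between RNA preparations (vertical axis, log2) for the carriers of each class, 1 point per gene, filled where the adjusted p was below 0.05, with a bar at the class median. In HMW minus LMW the mitochondrial median is -0.36 and the amino acid median 0.10, and in HMW minus Total the SLC35 (nucleotide sugar) median is -0.87, with 17 of 21 genes called lower.

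The comparison of HMW with Total sets the heavy polysome pool against all RNA of the cells. Here the SLC35 and metal carriers were the classes with no higher call. Of the 192 members 15 were higher and 62 lower in HMW, while 36.0% of all genes were called, 17.4% higher and 18.6% lower. The members' share of lower calls was 32.3%. SLC16A4 is among the lower members here and in LMW against Total. It passed the filter only through Total arrays, so this direction was fixed by how it was chosen. Of the 133 members at or above the filter in all 12 arrays, 9 were higher and 39 lower in HMW. Their median was -0.25, against 0.03 over all genes.

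SLC35 had 17 of 21 members lower, and its median lay between -0.96 and -0.78 in the 4 conditions. SLC35B3, a carrier of the sulfate donor PAPS, was at 7.73, 7.22, 7.33 and 5.94 in the HMW pools of 4GKD 10 Gy, 4GKD mock, WT 10 Gy and WT mock, against 8.99, 9.12, 8.81 and 8.57 in the Total arrays. The groups did not overlap, and the difference was -1.81 (SE 0.25, adjusted p = 0.00206). SLC35A1, the CMP-sialic acid carrier, fell by 1.43 (SE 0.20, adjusted p = 0.00220), and SLC35B1 fell by 0.65 (SE 0.21, adjusted p = 0.0440) with a value of 0.02 in the WT mock pair. Among the 16 SLC35 members above the filter in all arrays, 12 were lower and 0 higher. In LMW against Total, where 28.5% of all genes were higher and 28.1% lower, 11 of 21 were lower and 1 higher, with SLC35E4 at 1.35 (SE 0.22, adjusted p = 0.00253), and 11 members were lower in both polysome pools. Both comparisons use the same Total arrays, and the share of all genes lower in both pools was not counted.

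10 of the 24 metal carriers were lower in HMW than in Total. SLC30A4, a zinc carrier of endosomes, stood at 6.78, 6.49, 6.54 and 5.23 in the HMW pools, against 8.16, 7.99, 8.35 and 7.99 in the Total arrays, a difference of -1.87 (SE 0.25, adjusted p = 0.00191). SLC31A2, a copper carrier, fell by 1.39 (SE 0.18, adjusted p = 0.00189). The class median differed between conditions, at -0.55 in 4GKD 10 Gy, -0.39 in 4GKD mock, -0.75 in WT 10 Gy and -1.23 in WT mock, the last resting on an array that stood apart.

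The mitochondrial carriers split in this comparison, 6 higher and 7 lower of 35, with the abundant SLC25A3 and SLC25A5 among the higher. SLC25A3 was at 13.71, 13.70, 13.62 and 13.86 in the HMW pools, against 13.28, 13.30, 13.31 and 13.31 in the Total arrays, a difference of 0.42 (SE 0.07, adjusted p = 0.00431) with no overlap. SLC25A5, an ADP and ATP exchanger, was higher by 0.56 (SE 0.08, adjusted p = 0.00245), also without overlap. SLC25A10, the dicarboxylate carrier, was at 6.79, 7.04, 7.71 and 8.39 in the HMW pools and at 7.80, 7.93, 8.10 and 9.22 in the LMW pools, against 5.94, 6.55, 6.29 and 6.59 in the Total arrays. Its difference from Total was 1.14 in HMW (SE 0.24, adjusted p = 0.00955) and 1.92 in LMW (SE 0.24, adjusted p = 0.00126), so it was relatively enriched in both polysome pools, with the larger difference in the light one. SLC25A1 showed the same order, with 0.78 in HMW (SE 0.21, adjusted p = 0.0221) and 1.68 in LMW (SE 0.23, adjusted p = 0.00157). SLC25A13 was higher in HMW by 0.77 (SE 0.18, adjusted p = 0.0126). The opposite end held SLC25A16, at -1.60 (SE 0.18, adjusted p = 0.00130), SLC25A37, the iron importer mitoferrin-1, at -1.59 (SE 0.23, adjusted p = 0.00262), and SLC25A51, the mitochondrial NAD carrier, at -1.19 (SE 0.18, adjusted p = 0.00317). SLC25A51 lay below the filter in every HMW array and passed through the Total and WT LMW arrays, where it was high. Its fall from Total to HMW is thus partly a matter of selection. In LMW against Total, where 45 members were higher and 63 lower and 56.6% of all genes were called, 12 mitochondrial carriers were higher and 5 lower.

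Amino acid carriers had 4 higher and 6 lower of 25 in HMW against Total. SLC1A5 was at 8.999, 9.42, 8.93 and 9.59 in the HMW pools, against 7.94, 8.08, 8.05 and 8.40 in the Total arrays, and the groups did not overlap (difference 1.11, SE 0.18, adjusted p = 0.00339). SLC3A2, the heavy chain that partners SLC7A5 and SLC7A11, was higher by 0.66 (SE 0.15, adjusted p = 0.0135). Its light-chain partner SLC7A11, the cystine importer, was at 7.90, 8.24, 7.45 and 6.60 in the HMW pools and at 6.96, 7.32, 6.25 and 6.74 in the LMW pools, against 9.82, 10.19, 8.57 and 9.56 in the Total arrays. That was a difference of -1.99 in HMW (SE 0.28, adjusted p = 0.00240) and of -2.71 in LMW (SE 0.22, adjusted p = 0.000277), the lowest of the class in both pools. SLC38A1 fell by 1.34 in HMW (SE 0.38, adjusted p = 0.0292), with -0.59 and -0.40 in the 4GKD 10 Gy and mock pairs and -1.32 and -3.03 in the WT 10 Gy and mock pairs, and without the WT mock pair its difference was -0.77 (adjusted p = 0.00547). Without the WT 10 Gy pair it did not pass (-1.34, adjusted p = 0.116). SLC36A4 fell by 1.29 (SE 0.24, adjusted p = 0.00578).

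Sugar carriers had 1 higher and 2 lower of 14 in HMW against Total, 21.4% called, and ion carriers had 1 higher and 6 lower of 19, 36.8% called. SLC2A1 was higher in HMW in each of the 4 pairs, between 0.35 and 0.48, without passing (adjusted p = 0.0675). SLC37A3 fell by 1.09 (SE 0.18, adjusted p = 0.00413), SLC9B2, a sodium-proton exchanger, by 1.10 (SE 0.24, adjusted p = 0.0114), and SLC26A2 by 1.05 (SE 0.35, adjusted p = 0.0489). SLC9B2 lay at or above the filter in every Total array, but among the HMW arrays only in 4GKD 10 Gy, at 6.02. For SLC26A2 the pairs were -0.25 and -0.28 in 4GKD (10 Gy and mock), against -1.13 and -2.54 in WT, and without the WT mock pair its difference was -0.55 (adjusted p = 0.0287). Without the WT 10 Gy pair SLC26A2 did not pass (-1.02, adjusted p = 0.165). Among the others 3 of 52 were higher and 14 lower, with SLC43A3, a purine nucleobase carrier, at 1.10 (SE 0.18, adjusted p = 0.00402) and SLC46A3, a lysosomal carrier, at -1.57 (SE 0.25, adjusted p = 0.00325). The 14 include SLC16A4, which passed the filter only through Total arrays. Without the WT 10 Gy pair, 36 members were called in HMW against Total, in place of 77.

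The effect of the knockdown on carrier transcripts was measured in Total RNA first. 44 members were higher and 34 lower in 4GKD than in WT, near the background of 40.5% of all genes called, 20.7% higher and 19.8% lower. The differences were small for most, and 7 members in the 10 Gy pair and 8 in the mock pair differed by at least 2-fold, against 6.34% and 5.86% of all genes. The largest falls were in SLC7A2 and SLC43A3, and the largest rise was in SLC1A3. SLC27A2 passed the filter only through knockdown arrays and SLC68A1 only through WT arrays, so their directions here were favoured by how they were chosen. Of the 133 members at or above the filter in all 12 arrays, 24 were higher and 24 lower.

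SLC7A2, an importer of arginine and lysine, stood at log2 8.09 and 8.20 in 4GKD Total (10 Gy and mock), against 10.53 and 10.30 in WT Total (difference -2.27, SE 0.11, adjusted p = 2.27e-06). SLC43A3 was at 7.46 and 8.18 in 4GKD Total, against 9.40 and 9.78 in WT Total (difference -1.77, SE 0.12, adjusted p = 8.08e-06). SLC1A3 was at 9.03 and 8.91 in 4GKD Total, against 7.54 and 7.71 in WT Total (difference 1.35, SE 0.11, adjusted p = 2.7e-05). SLC7A11 was at 9.82 and 10.19 in 4GKD Total, against 8.57 and 9.56 in WT Total (difference 0.94, SE 0.14, adjusted p = 0.000606). In each of these 4 genes the knockdown and WT values did not overlap. The genes were picked for their differences and each group held only its 10 Gy and mock arrays, so this adds no support. The share of all genes without overlap was not counted.

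The amino acid class as a whole had 4 higher and 6 lower of 25. SLC1A4, a carrier of alanine, serine and cysteine, fell by 0.94 (SE 0.16, adjusted p = 0.00114) and SLC38A1 fell by 0.60 (SE 0.07, adjusted p = 0.000138), while SLC38A9, the lysosomal arginine sensor, was higher by 0.64 (SE 0.11, adjusted p = 0.00132). Sugar carriers had 4 higher and 3 lower of 14. SLC2A1 was at 7.62 and 7.71 in 4GKD Total, against 7.04 and 7.19 in WT Total (difference 0.55, SE 0.11, adjusted p = 0.00363), and SLC2A11 was higher by 0.98 (SE 0.17, adjusted p = 0.00143). In WT Total SLC2A11 lay below the filter, at 5.36 and 5.29 (10 Gy and mock). SLC5A3 fell by 1.01 (SE 0.10, adjusted p = 7.9e-05). Ion carriers had 6 higher and 2 lower of 19, among them SLC4A11 at 0.64 (SE 0.13, adjusted p = 0.00406), SLC26A11 at 0.58 (SE 0.14, adjusted p = 0.00783), SLC4A7 at -0.48 (SE 0.11, adjusted p = 0.00559) and SLC26A2 at -0.43 (SE 0.09, adjusted p = 0.00359). Another SLC4A7 probe set read 0.01.

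Metal carriers had 3 higher and 5 lower of 24 in Total. SLC39A4, a zinc importer, was higher by 0.91 (SE 0.10, adjusted p = 8.5e-05), while SLC39A14, a zinc and iron importer, fell by 0.77 (SE 0.09, adjusted p = 0.000105). The mitochondrial class had 4 higher and 4 lower of 35, the smallest share of calls among the classes of carriers, 22.9%. SLC25A15, the ornithine carrier, was at 8.04 and 8.33 in 4GKD Total, against 8.93 and 9.36 in WT Total (difference -0.96, SE 0.11, adjusted p = 0.000108). SLC25A40 was also lower, at -0.83 (SE 0.11, adjusted p = 0.000394), and SLC25A20, the carnitine-acylcarnitine carrier, was higher, at 0.65 (SE 0.11, adjusted p = 0.00116). In SLC35 6 of 21 were higher and 3 lower, from 0.83 for SLC35D2 (SE 0.11, adjusted p = 0.000364) to -0.98 for SLC35G2 (SE 0.13, adjusted p = 0.000269). Of the others 17 of 52 were higher and 10 lower, with SLC27A4, a fatty acid carrier, at 0.91 (SE 0.11, adjusted p = 0.000166) and SLC48A1, a heme carrier, at 0.91 (SE 0.12, adjusted p = 0.000319). These fits have 1 residual degree of freedom, and a fit of all 12 arrays with 1 common spread called 1 member in Total in place of 78.

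**Figure D2:**
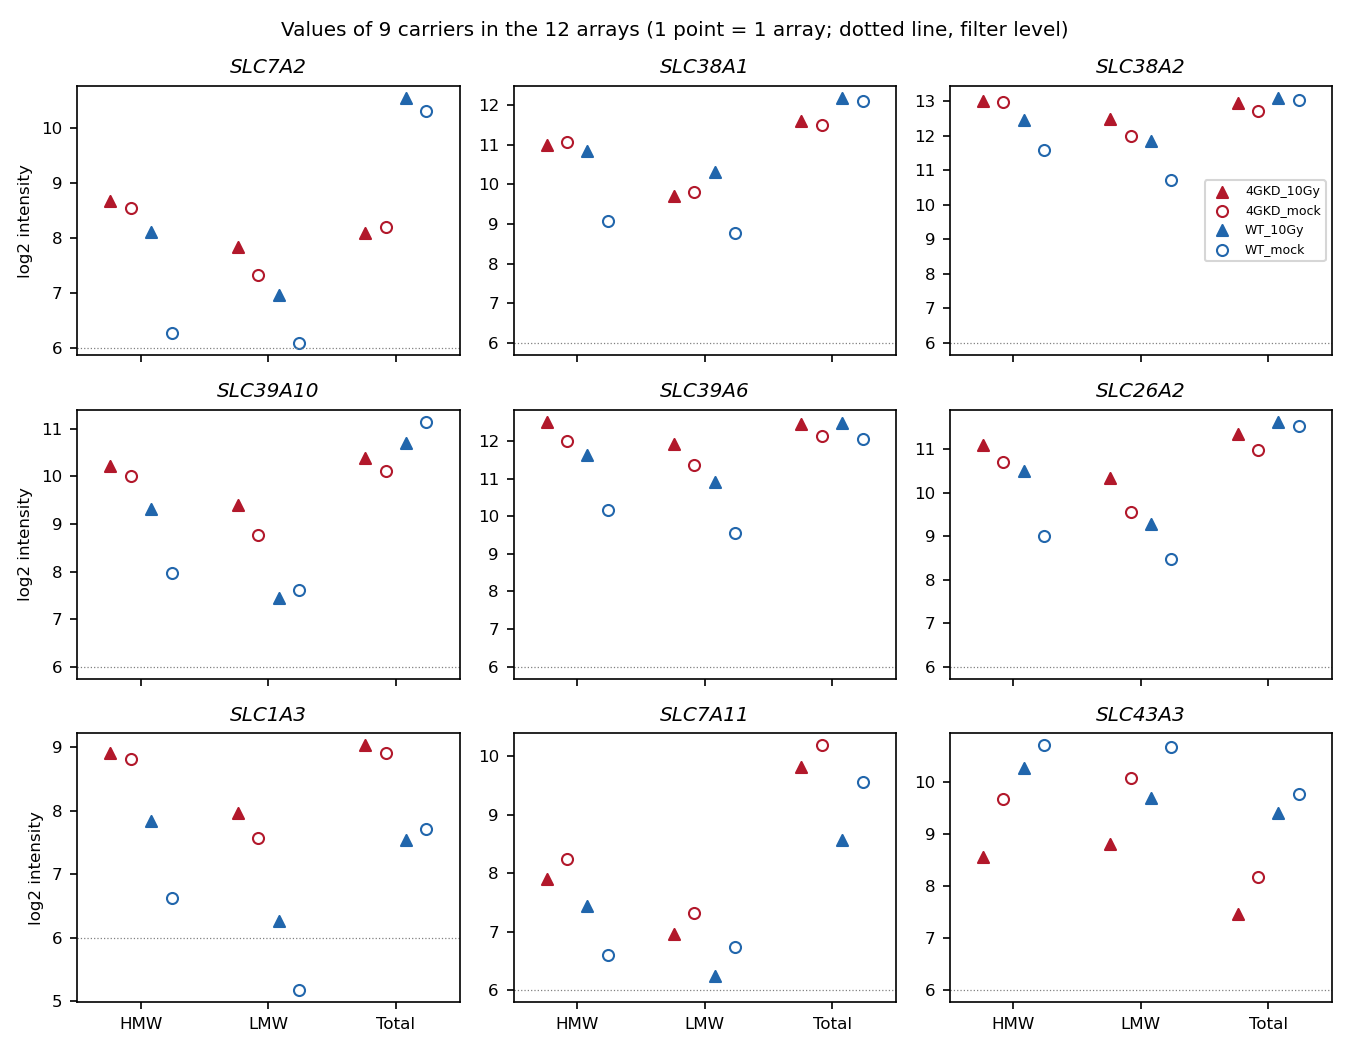
Log2 intensity (vertical axis) of 9 carriers in each of the 12 arrays, by preparation, with 4GKD in red and WT in blue, triangles for 10 Gy and circles for mock, and the filter level of 6 as a dotted line. SLC7A2 lies at 8.09 and 8.20 in 4GKD Total, below the WT Total values of 10.53 and 10.30, while in HMW the 4GKD values of 8.66 and 8.55 lie above the WT values of 8.11 and 6.26.

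In the heavy polysome pool 11 members were higher and 2 lower in 4GKD, 6.77% of the 192, against 9.90% of all genes called, 5.82% higher and 4.09% lower. Every member that was called moved the same way in both pairs, but in 12 of the 13 the mock pair, which holds the WT mock array that stood apart, gave the larger difference. All 13 differed by at least 2-fold in the mock pair and 4 of them in the 10 Gy pair. The higher ones were 4 amino acid carriers (SLC1A3, SLC7A2, SLC38A1, SLC38A2), the sulfate carrier SLC26A2, the zinc importers SLC39A10 and SLC39A6, and SLC44A5, SLC33A1, SLC16A7 and SLC66A3. The lower ones were SLC43A3 and the non-carrier SLC2A4RG. No sugar, mitochondrial or SLC35 carrier was called, and at an unadjusted p below 0.05 there were 1, 3 and 4 of them.

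SLC39A6 was at 12.52 and 12.01 in 4GKD HMW (10 Gy and mock), against 11.62 and 10.17 in WT HMW. The difference was 1.37 (SE 0.27, adjusted p = 3.96e-05), made of 0.89 in the 10 Gy pair and 1.84 in the mock pair. SLC39A10 was at 10.22 and 10.01 in 4GKD HMW, against 9.31 and 7.98 in WT HMW (difference 1.47, SE 0.40, adjusted p = 0.00569), with 0.91 in the 10 Gy pair and 2.03 in the mock pair. SLC38A2 was at 13.01 and 12.99 in 4GKD HMW, against 12.46 and 11.57 in WT HMW (difference 0.98, SE 0.21, adjusted p = 0.000217). SLC38A1 was at 11.00 and 11.08 in 4GKD HMW, against 10.85 and 9.07 in WT HMW, so its difference of 1.08 (SE 0.35, adjusted p = 0.0239) was 0.15 in the 10 Gy pair and 2.01 in the mock pair. SLC16A7, a monocarboxylate carrier, likewise had 0.17 in the 10 Gy pair and 2.29 in the mock pair. SLC44A5, of the choline transporter-like family, was at 7.74 and 6.92 in 4GKD HMW, against 6.68 and 4.20 in WT HMW (difference 1.89, SE 0.40, adjusted p = 0.000137). SLC43A3 was at 8.56 and 9.68 in 4GKD HMW, against 10.28 and 10.71 in WT HMW, and was the called carrier with the larger difference in the 10 Gy pair, -1.72, against -1.02 in the mock pair.

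The light polysome pool gave 18 higher and 9 lower calls in 4GKD, 14.1% of the members, against 15.4% of all genes, 10.3% higher and 5.10% lower. SLC68A1 stood at 5.44 and 5.87 in 4GKD LMW (10 Gy and mock), against 6.35 and 7.63 in WT LMW. It passed the filter only through WT arrays, so this direction was favoured by how it was chosen. Of the 133 members at or above the filter in all 12 arrays, 6 were higher and 6 lower. SLC1A3 was at 7.95 and 7.57 in 4GKD LMW, against 6.27 and 5.17 in WT LMW (difference 2.04, SE 0.40, adjusted p = 2.01e-05). SLC2A1 was at 7.90 and 8.44 in 4GKD LMW, against 5.87 and 7.03 in WT LMW (difference 1.72, SE 0.41, adjusted p = 0.000776). SLC12A2 rose by 1.76 (SE 0.40, adjusted p = 0.000374), where its other probe set read -0.07, and SLC4A11 by 1.73 (SE 0.40, adjusted p = 0.000446). The metal carriers had 5 higher and 0 lower of 24, among them SLC39A10 at 1.55 (SE 0.46, adjusted p = 0.00806), SLC39A6 at 1.40 (SE 0.37, adjusted p = 0.00253) and SLC11A2, the iron importer DMT1, at 1.45 (SE 0.40, adjusted p = 0.00440). The mitochondrial carriers had 0 higher and 2 lower of 35. SLC25A40 was at 5.77 and 5.81 in 4GKD LMW, against 8.14 and 6.76 in WT LMW (difference -1.66, SE 0.40, adjusted p = 0.000809), and SLC25A15 fell by 1.56 (SE 0.47, adjusted p = 0.0105). Both were lower in 4GKD Total as well. Both WT LMW arrays stood apart, so neither pair is free of them.

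Across the 3 preparations, SLC1A3 and SLC33A1 were higher in 4GKD in each, and SLC2A4RG lower in each. SLC33A1 had differences of 1.79 in HMW (0.89 in the 10 Gy pair and 2.70 in the mock pair), 1.91 in LMW (1.17 and 2.66 in the same pairs) and 0.41 in Total (0.38 and 0.43). 5 carriers were lower in Total and higher in HMW, namely SLC7A2, SLC38A1, SLC38A2, SLC26A2 and SLC39A10, and none was higher in Total and lower in HMW. These 5 were named after their values were seen. Opposite calls in Total and HMW, and like calls in all 3 preparations, were not counted over all genes. No background therefore stands beside these numbers. The difference HMW minus Total comes from the same arrays, so for these 5 it restates how they were picked and gives no further support. Over all members it was higher in 4GKD for 7 members and lower for 0, against 4.46% of all genes called, 3.97% higher and 0.492% lower. The 7 were the same 5 carriers with SLC39A6 and SLC27A6.

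SLC7A2 showed the largest change of HMW minus Total, with HMW minus Total at 0.56 and 0.34 in 4GKD (10 Gy and mock), against -2.42 and -4.04 in WT. The knockdown difference was 3.68 (SE 0.47, adjusted p = 1.83e-12), with 2.99 in the 10 Gy pair and 4.38 in the mock pair. SLC39A10 followed with 2.14 (SE 0.42, adjusted p = 3.32e-05), SLC27A6, a fatty acid carrier, with 1.75 (SE 0.35, adjusted p = 7.27e-05), SLC38A1 with 1.68 (SE 0.33, adjusted p = 4.83e-05) and SLC26A2 with 1.57 (SE 0.36, adjusted p = 0.000754). SLC27A6 was at or above the filter only in the Total and 4GKD HMW arrays. In WT HMW it was read with little signal, at 5.67 and 4.80 (10 Gy and mock). SLC39A6 had 1.33 (SE 0.27, adjusted p = 0.000109) and SLC38A2 had 1.22 (SE 0.22, adjusted p = 3.8e-06). All p-values of this fit, that of SLC7A2 included, rest on a spread pooled over genes, with no replicate behind them. In the 10 Gy pair, which does not use the WT mock arrays, the 7 values ran from 0.70 for SLC38A2 to 2.99 for SLC7A2, and in the mock pair they were larger for all 7. When LMW stood in for Total as the subtracted array, the knockdown differences of SLC39A10 and SLC39A6 were -0.081 and -0.035.

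**Figure D3:**
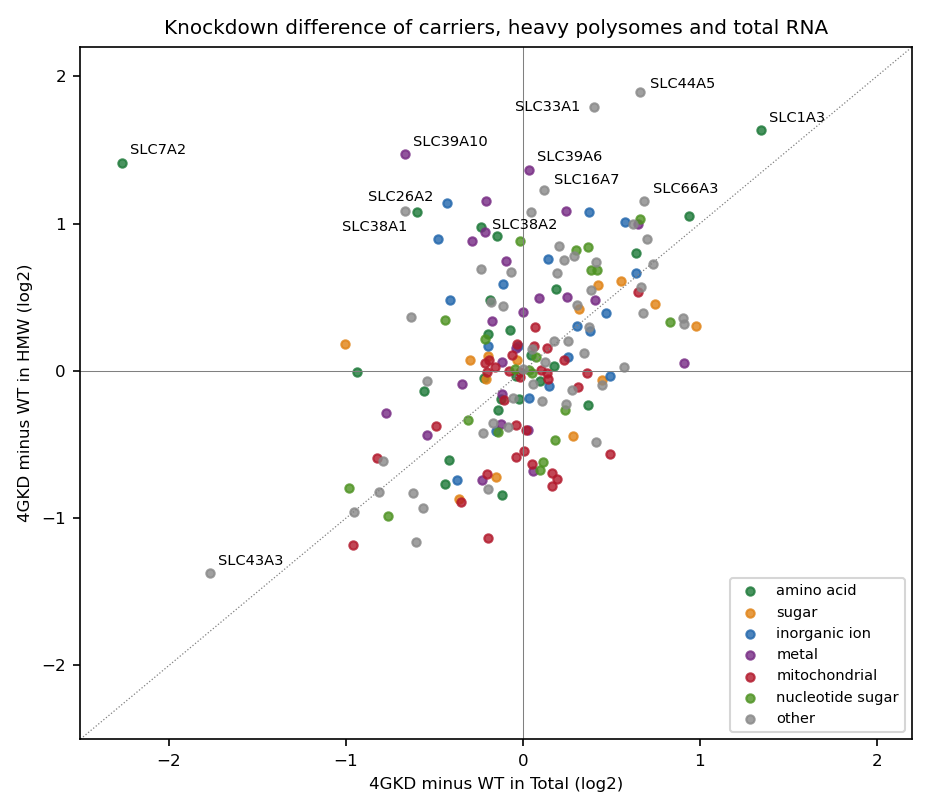
Knockdown difference (4GKD minus WT, log2) of the 190 carriers in Total RNA (horizontal axis) and in heavy polysomes (vertical axis), coloured by class, with the 12 carriers called in HMW named and equality as a dotted line. SLC7A2 lies at -2.27 in Total and 1.41 in HMW, SLC1A3 at 1.35 and 1.63, and SLC43A3 at -1.77 and -1.37.

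10 Gy was compared with mock in each preparation over both genotypes. No member passed in Total (limma), where 18 of all genes did (0.177%) and 26 members had an unadjusted p below 0.05. None passed in LMW, where 0.374% of all genes were called and 12 members had an unadjusted p below 0.05. In HMW 1 member passed, against 0.473% of all genes. It was SLC44A5, at 7.74 in 4GKD 10 Gy and 6.68 in WT 10 Gy HMW, against 6.92 in 4GKD mock and 4.20 in WT mock HMW. Its difference of 1.65 (SE 0.40, adjusted p = 0.0169) was made of 0.81 in 4GKD and 2.49 in WT, the WT value resting on the mock array that stood apart. In that array SLC44A5 lay below the filter and was read with little signal. With the filter at 7, the median of probe sets or all 12 arrays, no member was called. For HMW minus Total 0 members and 0.276% of all genes were called, with 11 members at an unadjusted p below 0.05.

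Within each genotype 10 Gy and mock were 1 array each, so the following are values with no test. In Total no member moved by 2-fold in either genotype, against 0.965% of all genes in 4GKD and 0.0886% in WT. In 4GKD 1 member moved by at least 2-fold in HMW and 1 in LMW, while in WT 24 did in HMW and 46 in LMW. Over all genes the shares past 2-fold were 0.847% in 4GKD HMW and 1.33% in 4GKD LMW, against 18.0% in WT HMW and 20.1% in WT LMW. The members with 10 Gy responses of opposite sign in the genotypes and a difference of at least 2-fold between them numbered 18 in HMW and 25 in LMW, against 9.64% and 14.1% of all genes, and are near that background. The largest such difference in HMW was in SLC16A7, which was at 6.54 after 10 Gy and 6.97 after mock in 4GKD, and at 6.37 after 10 Gy and 4.69 after mock in WT. The largest in LMW was in SLC30A7, a zinc carrier of the secretory pathway, at 8.19 after 10 Gy and 8.32 after mock in 4GKD, and at 7.86 after 10 Gy and 5.61 after mock in WT. In both genes the WT mock array was the low one.

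**Figure D4:**
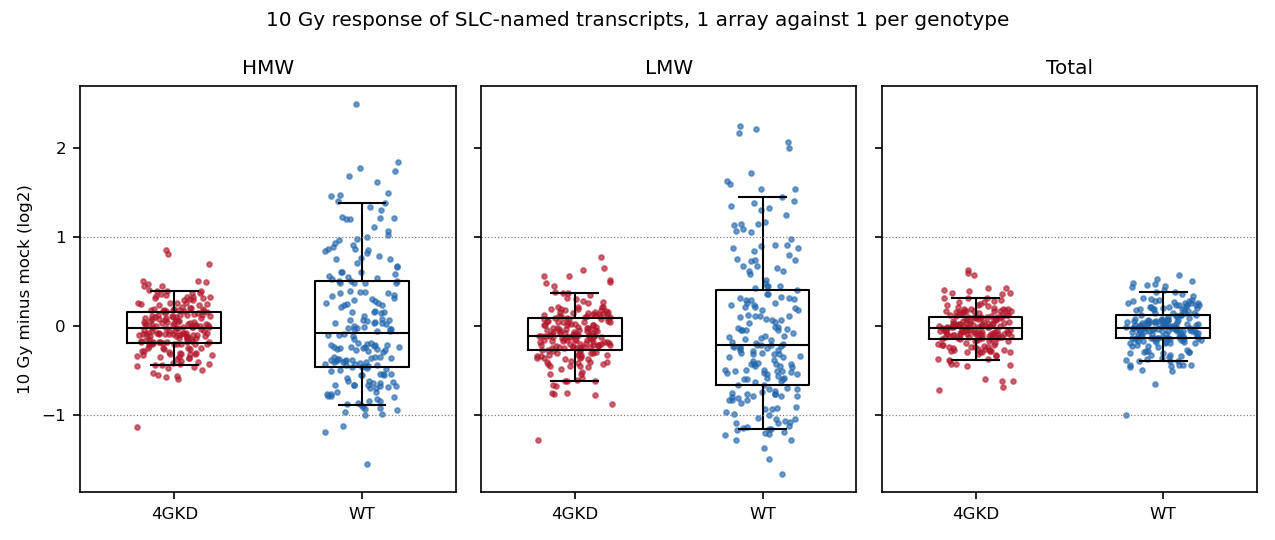
10 Gy minus mock (vertical axis, log2) of the 192 members in each genotype and preparation, 1 array against 1, with boxes at the quartiles, whiskers at the 5th and 95th percentiles and dotted lines at 2-fold. In Total both genotypes lie within -0.99 and 0.63, while in HMW and LMW the WT values spread up to 2.49 and 2.25.

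Genes that work with carriers, or carry solutes under other symbols, were followed as a list of 30, of which 23 were kept. In HMW against LMW 3 of 23 were higher and 7 lower, 43.5% called, against 40.7% of all genes. The cholesterol transporter NPC1 was higher by 2.07 (SE 0.21, adjusted p = 0.00171) and EMB, a partner of monocarboxylate carriers, by 1.07 (SE 0.29, adjusted p = 0.0259), while MPDU1 fell by 0.84 (SE 0.13, adjusted p = 0.00489) and TIMM22, part of the complex that inserts SLC25 proteins into the inner membrane, fell by 0.79 (SE 0.13, adjusted p = 0.00551). In HMW against Total 3 were higher and 7 lower, 43.5% called, against 36.0% of all genes, with SLCO4A1, an organic anion carrier, at 1.06, VDAC3, an outer membrane pore, at 0.74, EMB at -1.98 and TIMM9 at -1.12. In the knockdown in Total 5 were higher and 7 lower, 52.2% called, against 40.5% of all genes, with TIMM9 at 0.52 and the phosphate exporter XPR1 at 0.49, against SLCO4A1 at -1.24 and the sodium pump subunit ATP1B1 at -0.91.

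Of the members with another probe set of mean log2 at least 6, the other probe sets went the same way as the one used in 43 of 48 readings for HMW against LMW, 46 of 47 for HMW against Total, 58 of 69 for LMW against Total, 30 of 34 for the knockdown in Total, 17 of 18 in LMW and 14 of 14 in HMW. Each count covers called members only.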

How the data were processed

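RNA of 12 samples was hybridised to oligonucleotide arrays with 54675 probe sets after labelling with a 3′ in vitro transcription kit, per the labels' protocols. The authors deposited linear intensities per probe set, made with RMA per the submitters' processing notes, with no version given in the sources used here. RMA corrects background, normalises arrays to a like distribution and summarises probes. Intensities were taken to log2. Array medians lay between 22.61 and 24.37. The number of arrays limits the precision, and nothing says that samples were replicated, so p-values at most measure the spread between these samples. In the fits within LMW, within HMW and on HMW minus Total, p-values rest on a spread pooled over genes. They do not rest on each gene's own spread there. The residual of these fits, with 1 degree of freedom, is how far the knockdown and irradiation terms depart from adding up.

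Of the probe sets, 41097 had 1 gene symbol and 1801 several, which were not used. The brightest probe set by mean log2 stood for each gene, giving 19775 genes, and 10157 passed the filter of log2 6 in 4 arrays. Among 376 SLC symbols, 30 antisense genes, other noncoding genes and pseudogenes were left out. 128 members had several probe sets.

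Tests used limma 3.58.1 in R 4.3.3 (eBayes with a trend, Benjamini-Hochberg over all kept genes, threshold 0.05). Fractions were compared over 8 arrays with the condition as a block. Knockdown and 10 Gy were 2 additive terms of a fit on the 4 arrays of a preparation or on HMW minus Total, where the trend followed the mean intensity of the arrays used. The spread was pooled completely over genes in the LMW, HMW and HMW minus Total fits. Scripts were tested on simulated data. Named genes are the 2 or 3 highest and lowest called members of each class that moved the same way in every pair, with a list of well known carriers. The members, classes and lists were chosen with earlier results of these data known. Alternatives were other filters, probe set choices, normalisation, fits and leaving out pairs.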

Additional observations from a re-analysis of the deposited data

Results flagged for a closer look

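6 carriers are listed because their 10 Gy responses had opposite signs in the genotypes, and the largest differences among such carriers in each polysome pool; the difference was not tested, since each response compares 1 array with 1. In HMW the 4GKD response minus the WT response was -2.12 for SLC16A7, -1.98 for SLC4A7 and -1.86 for SLC38A1. In LMW it was -2.38 for SLC30A7, -2.20 for SLC30A9 and -1.96 for SLC25A46. The HMW values rest on the WT mock HMW array, and the LMW values on the WT mock and WT 10 Gy LMW arrays, all 3 of which stood apart from the others of their preparation. SLC30A9 in LMW was at 7.61 and 7.81 in 4GKD (10 Gy and mock), against 9.15 and 7.15 in WT, so that its WT 10 Gy value was the far one. The part of these arrays in the values was not tested.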

How the results depend on the processing

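No paired analysis was possible because the labels give 1 array for each group, so groups share no series of replicate numbers; this concerns pairing by replicate number alone, since preparations were paired by condition in the reported fits. Of 1570 values of named genes recomputed under other settings, 1333 kept their direction and their side of the threshold, 228 no longer passed, 4 passed where they had not, and 5 changed sign. The 5 were SLC25A13 in HMW against LMW (-0.13) and SLC6A15 in the LMW knockdown (-0.088), both with the median of probe sets, SLC12A4 in the LMW knockdown without shared-probe sets (-0.025), and SLC39A10 and SLC39A6 with HMW minus LMW (-0.081 and -0.035). With 1 pair left out, HMW against LMW called 39 to 87 members, HMW against Total 36 to 85 and LMW against Total 77 to 105, the last within 1.5 times of its count of 108. The following counts moved by over 1.5 times. HMW against LMW gave 0 without the condition block. The knockdown in Total gave 1 with all 12 arrays. The knockdown in LMW gave 14 with the median of probe sets, and in HMW 7 with that median and 8 without shared-probe sets. 10 Gy in Total gave 1 with the filter at 7 and 4 with loess normalisation, and 10 Gy in HMW gave 0 with the filter at 7, the median of probe sets or all 12 arrays. The knockdown of HMW minus LMW called 15 members, 7 higher and 8 lower. The cause of these moves was not tested. The share of all genes called was not counted under these other settings, HMW minus LMW included. No background therefore stands beside these counts. No depth is known for arrays; transcripts below the filter in some arrays, such as SLC1A3 in WT mock LMW, are read there with little signal.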
